A study of Homo sapiens with 6 samples.

Results

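The DNAJ proteins, or HSP40s, are co-chaperones that deliver clients to HSP70 chaperones. They were followed here in a human cell line given the compound AAPK. The genes were those whose symbol starts with DNAJA, DNAJB or DNAJC and a number, read from probe sets (groups of probes for 1 transcript region) that name exactly 1 symbol. They came to 46 of the 18132 genes measured, on 126 of the 44988 single-symbol probe sets. Of these, 4 were class A, 13 class B and 28 class C, and 1 was the pseudogene DNAJA1P5, which belongs to no class. The RefSeq gene table also lists DNAJB3, counted here with class B, as a transcribed pseudogene.

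Total RNA was measured on Affymetrix PrimeView arrays, 3 from AAPK-treated and 3 from DMSO-treated cells, all labelled as the colorectal carcinoma line HCT-116 with high levels of Aurora-A and PLK-1. The treatment field, worded alike for both groups, gives 10 µM and 48 h, and the dose is read here as that of AAPK. The series title calls the compound a dual inhibitor of the kinases Aurora A and PLK-1. The line is 1 cell line, and nothing in the labels says that the 3 samples of a group were separate cultures, so p-values speak of sample-to-sample spread alone, which may be technical.

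Every DNAJ protein carries a J domain, which makes HSP70 hydrolyse ATP and close on its client. Class A proteins keep the full layout of bacterial DnaJ with a zinc-binding region, class B proteins keep a glycine-rich linker and the client-binding domain but not the zinc-binding region, and class C proteins share little beyond the J domain itself. Classes A and B mostly handle unfolded proteins in general, while many class C members bring HSP70 to 1 place or task, such as a ribosome, a clathrin coat or a mitochondrial import pore. Some DNAJ genes, DNAJB1 and DNAJA1 among them, are known targets of the heat shock factor HSF1, and others, such as DNAJB9, DNAJB11 and DNAJC3, of the response to unfolded proteins in the endoplasmic reticulum.

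The label of the cells was set against marker genes first. The keratins KRT8 and KRT18 were bright on every array, with means of 12.01 and 12.52 log2 units in AAPK and 11.84 and 12.44 in DMSO. EPCAM, the epithelial cell adhesion molecule, averaged 3.39 in AAPK and 3.45 in DMSO on its brightest of 3 probe sets, and 99.1% of genes were brighter. CDH1, which encodes E-cadherin, averaged 5.11 in both groups, and KRT19, VIL1 and CDX2 also lay below the 25th percentile of genes in signal. CDX2 lay only just under it, with 75.5% of genes brighter. Thus 5 of the 7 epithelial and colorectal markers were dim, against the label, and the cells are called by their label only. VIM, which encodes vimentin, and the keratin gene KRT7, both chosen after their values were seen, averaged 12.54 and 10.98 in AAPK and 12.51 and 10.96 in DMSO. Of the 7 epithelial markers 1 passed limma's threshold, KRT8, higher in AAPK by 0.17 (adjusted p = 0.0402) with all 7 of its other probe sets above 0. None of 4 blood, 4 fibroblast and 3 endothelial markers passed. Of these, 1 endothelial marker, VWF, had an unadjusted p under 0.05. The summed log2 signal of the endothelial list was 20.67 to 20.99 on the AAPK arrays and 20.99 to 21.25 on the DMSO arrays. That of the epithelial list was 47.76 to 48.01 on the AAPK arrays and 47.70 to 47.92 on the DMSO arrays. The part of either in the results was not tested. Array medians were 6.46 to 6.47 in AAPK and 6.48 to 6.50 in DMSO, and since the arrays had been equalised, a difference is one against the typical gene.

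Promoter stretches are shown for 4 of the 8 members that hold, or nearly hold, the element that HSF1 binds, built of GAA and TTC units. The 4 shown include all 3 of these members that passed limma's threshold below. The element of 3 units was searched as GAA, TTC and GAA with any 2 bases between neighbouring units, and that of 2 units, added after the first search, as GAANNTTC or TTCNNGAA, on both strands. Each 3-unit match also contains 2-unit matches. The sequences are from RefSeq, build GRCh38.p14, and run 5′ to 3′ on the gene's strand, with the matches in capitals. Those of DNAJA1 (plus strand, chr9:33025068-33025288), DNAJB6 (plus strand, chr7:157336844-157336943), the second listed start of DNAJB4 (plus strand, chr1:78004819-78004868) and 1 listed start of DNAJB1 (minus strand, chr19:14518398-14518497) read as follows.
DNAJA1: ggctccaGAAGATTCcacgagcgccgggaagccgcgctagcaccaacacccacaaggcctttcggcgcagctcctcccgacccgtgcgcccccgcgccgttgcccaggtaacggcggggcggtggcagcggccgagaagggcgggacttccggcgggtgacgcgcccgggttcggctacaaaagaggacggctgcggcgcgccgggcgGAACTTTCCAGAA
DNAJB6: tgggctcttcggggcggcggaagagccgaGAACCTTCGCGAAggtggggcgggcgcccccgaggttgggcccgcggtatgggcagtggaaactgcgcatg
DNAJB4: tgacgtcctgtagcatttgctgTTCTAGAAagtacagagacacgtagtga
DNAJB1: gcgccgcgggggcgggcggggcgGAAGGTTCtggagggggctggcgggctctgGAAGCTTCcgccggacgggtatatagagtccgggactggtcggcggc

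Windows of 250 bases before to 50 after a start site were listed for 40 of the 46 members, some with several starts, and DNAJA1P5, DNAJB3, DNAJC1, DNAJC22, DNAJC24 and DNAJC5B had no entry. These 40 genes had 52 windows. The 3-unit element was found in 2 of the 52, those of DNAJA1 at positions 4 to 16 and DNAJB6 at positions -131 to -119, which is 3.85% against 0.49% of all 35116 windows. The 2-unit element was found in 9 of the 52, or 17.3%, against 13.5% of all windows, and these belonged to 8 genes, DNAJA1, DNAJA4, DNAJB1, DNAJB4, DNAJB6, DNAJB7, DNAJC6 and DNAJC15. The endoplasmic reticulum stress element, searched by that name on both strands as CCAAT and CCACG with 9 bases between, was in none of the members' windows and in 0.0769% of all. A match is a run of letters and does not show that a factor binds there.

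Across the family, transcripts moved in both directions and mostly by little. At limma's adjusted p of 0.05, 9 of 46 members rose and 5 fell with AAPK, so 30.4% passed, against 15.4% of all genes. By direction, 8.11% of all genes rose and 7.26% fell. In such bulk RNA, fewer cells that make a transcript and less of it per cell cannot be told apart. The median log2 difference, AAPK minus DMSO, was 0.02 over the members and -0.02 over all genes. The median size of the difference was 0.08 for members and 0.07 for all genes. The AAPK and DMSO arrays did not overlap for 19 of the 46 members, 41.3%, where 31.9% of all genes had no overlap. AAPK lay above in 10 of them and below in 9, against 14.9% and 17.1% of all genes. In mean signal over the 6 arrays 39 members lay at or above the 25th percentile of genes, and of the 7 below it 1 passed, DNAJC18.

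**Figure D1:**
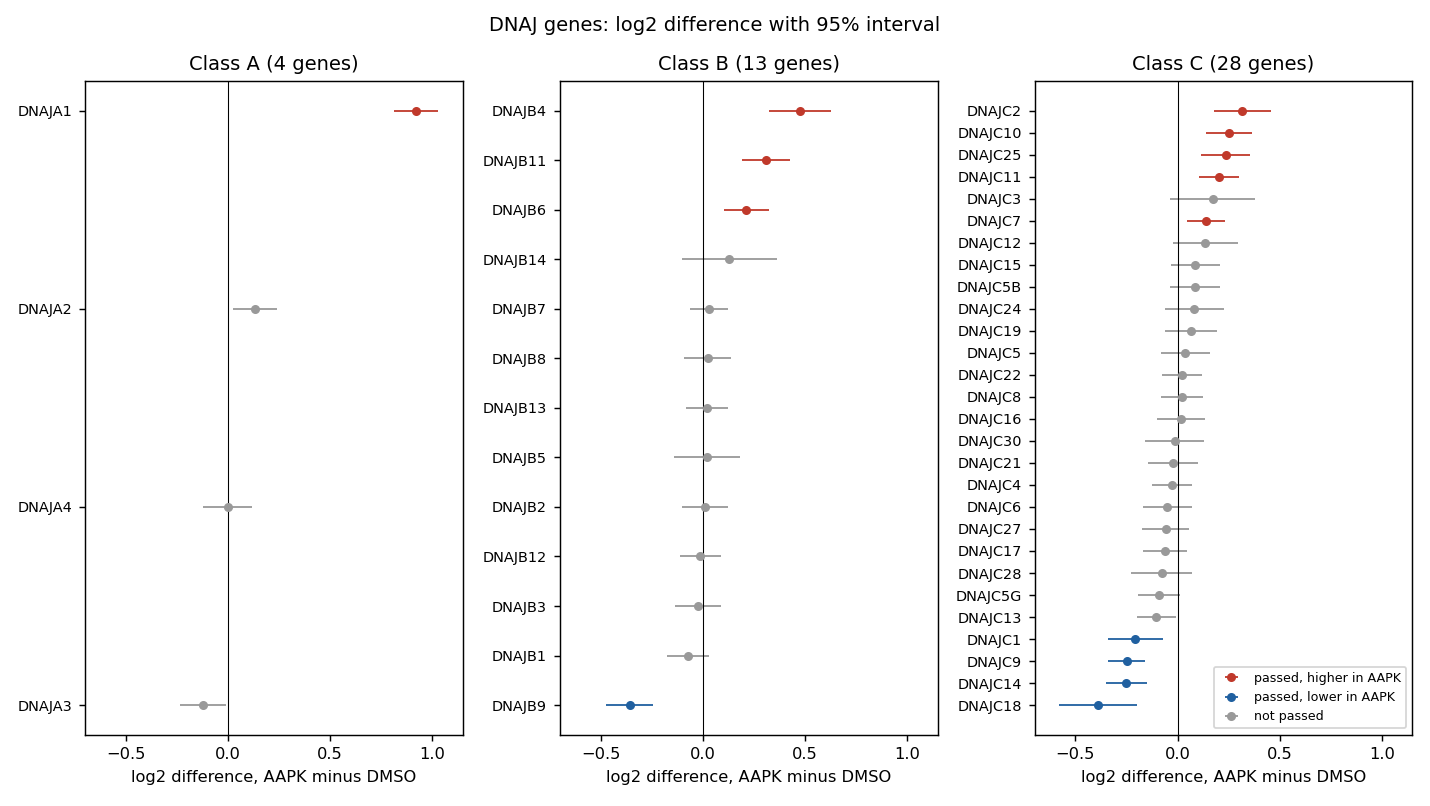
Log2 difference, AAPK minus DMSO (horizontal axis), of the 45 class A, B and C genes, each a point with its 95% interval, 3 arrays a group. DNAJA1 stands at 0.92, DNAJB4 next at 0.48, and DNAJC18 lowest at -0.39.

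Every class held genes that passed. In class A 1 of 4 genes rose and 0 fell, in class B 3 of 13 rose and 1 fell, and in class C 5 of 28 rose and 4 fell. The shares that passed were 25%, 30.8% and 32.1%, against 15.4% of all genes, of which 8.11% rose and 7.26% fell. The median differences were 0.07, 0.02 and 0.02. Class A's median rests on 4 genes. The differences between the classes were not tested, since the lists were chosen with results known.

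DNAJA1, a farnesylated cytosolic partner of HSC70, changed most of the family. Its log2 signal was 10.45, 10.55 and 10.54 on the AAPK arrays, against 9.62, 9.53 and 9.62 on the DMSO arrays. The groups lay far apart, and AAPK was 1.89-fold higher (log2 difference 0.92 ± 0.05 SE, n = 3 a group, limma adjusted p = 1.94e-06). All 5 of its probe sets passed when every probe set was fitted, and the other 4 had differences of 0.66 to 0.97. Its brightest probe set is of the type that the array's maker marks as able to bind related sequences, and the RefSeq table lists several DNAJA1 pseudogenes, so some signal may come from such copies. The pseudogene DNAJA1P5, read by its own probe set at 3.14 log2 units in AAPK and 3.18 in DMSO, had a difference of -0.04 and did not pass (adjusted p = 0.704).

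The other class A genes did not pass. DNAJA2, the other main cytosolic class A protein, read 8.97, 9.07 and 9.09 in AAPK and 8.92, 8.88 and 8.94 in DMSO. These groups did not overlap either, but the gap was small, with a log2 difference of 0.13 ± 0.05 SE (95% interval 0.02 to 0.24, limma adjusted p = 0.102) and -0.05 on its second probe set. DNAJA3, the mitochondrial class A protein TID1, read 9.47, 9.48 and 9.49 in AAPK and 9.51, 9.62 and 9.67 in DMSO. All AAPK values were below all DMSO values by a small margin, at -0.12 (limma adjusted p = 0.149), and both other probe sets were below 0 too. DNAJA4, another cytosolic class A protein and dim on this array, had overlapping groups with a 95% interval of -0.12 to 0.12 around a difference of 0.00.

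Among the class B genes of the cytosol and nucleus, DNAJB4 and DNAJB6 rose. DNAJB4, a close relative of DNAJB1, read 7.89, 7.72 and 7.88 in AAPK, against 7.44, 7.22 and 7.41 in DMSO. The lowest AAPK array was above the highest DMSO array, and the rise was 1.39-fold (log2 difference 0.48 ± 0.07 SE, limma adjusted p = 0.00108). All 3 of its probe sets passed, at 0.48, 0.67 and 0.32. DNAJB6, which keeps aggregation-prone proteins such as polyglutamine peptides soluble, read 9.40, 9.47 and 9.39 in AAPK and 9.25, 9.13 and 9.24 in DMSO. Its groups were separate and differed by 0.21 ± 0.05 SE (adjusted p = 0.0159). Its 4 other probe sets ran from 0.11 to 0.30, and 2 of these held identical values on all 6 arrays and are 1 measurement. The call on DNAJB6 was lost without AAPK replicate 2 and without DMSO replicate 2, and its difference stayed between 0.17 and 0.23 whichever array was left out.

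DNAJB1, the classic stress-inducible HSP40 and the main class B partner of HSP70, did not pass. It read 8.75, 8.75 and 8.71 in AAPK, against 8.87, 8.76 and 8.80 in DMSO. The AAPK arrays lay just below the DMSO arrays, at -0.07 ± 0.05 SE (95% interval -0.18 to 0.03, limma adjusted p = 0.364). The other 2 probe sets were at 0.05 and -0.06, and none of the 3 passed. The upper bound of the interval on the brightest probe set, 0.03, lay below the difference of each member that rose. DNAJB5, the third gene of the DNAJB1 and DNAJB4 group, was at 0.02 with a 95% interval of -0.14 to 0.18 (limma adjusted p = 0.909), and its 2 other probe sets were at -0.16 and -0.05.

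Differences between members were read within each array, for 5 pairs chosen after their values were seen. The difference for DNAJA1 exceeded that for DNAJA2 by 0.79 ± 0.02 and that for DNAJB1 by 0.99 ± 0.05 on the log2 scale (SE, n = 3 a group). DNAJB4 exceeded DNAJB1 by 0.55 ± 0.08 and DNAJB5 by 0.46 ± 0.11. DNAJB11 exceeded DNAJB9 by 0.67 ± 0.05. In each pair the 3 AAPK arrays and the 3 DMSO arrays were separate. The two-sided exact permutation p was 0.1, the smallest that 3 arrays against 3 allow, and 0.1 after Benjamini-Hochberg adjustment over the 5 pairs. Since the pairs were chosen with their values seen, this p is not independent evidence, and the adjustment does not cover that choice.

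**Figure D2:**
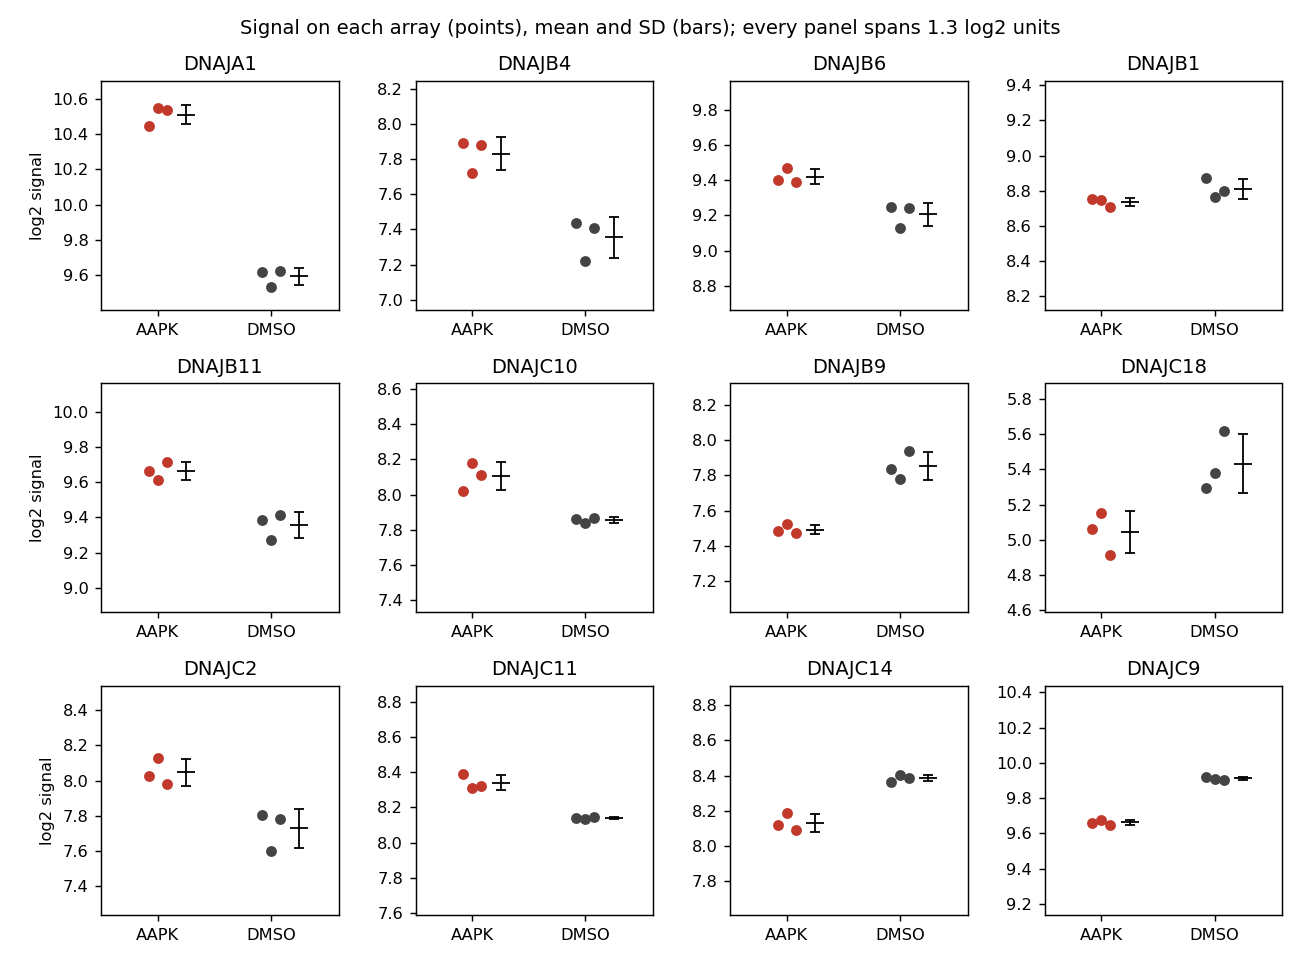
Log2 signal (vertical axis, every panel spanning the same height) of 12 DNAJ genes on the 3 AAPK arrays (left) and the 3 DMSO arrays (right), with the mean and SD of each group. The groups are widest apart for DNAJA1, while the AAPK arrays of DNAJB1 lie just under its DMSO arrays.

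The remaining class B genes of this compartment stayed near 0. DNAJB2, a neuron-enriched protein with ubiquitin-binding motifs, was at 0.01, and its 5 other probe sets lay between 0.01 and 0.06. DNAJB13, a protein of sperm tails and cilia, was at 0.02. DNAJB8, a relative of DNAJB6, was at 0.02 as well. DNAJB7 was at 0.03 and DNAJB3 at -0.02. DNAJB3, DNAJB7 and DNAJB8 lay below the 25th percentile of signal, so that these arrays say little about them. In all, 3 of the 12 class A and B genes of the cytosol and nucleus rose and 0 fell, so that 25% passed against 15.4% of all genes. The median difference over the 12 was 0.02.

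Genes listed under the endoplasmic reticulum moved in both directions. Of 11 members 3 rose and 3 fell, and 5 did not pass, so that 54.5% passed against 15.4% of all genes. DNAJC14, also known as a membrane protein of this compartment but listed with the ribosome and nucleus, fell as well, and with it 3 of 12 rose and 4 fell. DNAJB11, or ERdj3, a soluble partner of the HSP70 protein BiP that binds unfolded secretory proteins, read 9.66, 9.62 and 9.71 in AAPK and 9.38, 9.27 and 9.41 in DMSO. Every AAPK value was above every DMSO value, with a difference of 0.31 ± 0.05 SE or 1.24-fold (limma adjusted p = 0.00286), on its only probe set. DNAJC10, or ERdj5, a reductase that opens disulfides of misfolded proteins, read 8.02, 8.18 and 8.11 in AAPK and 7.86, 7.84 and 7.87 in DMSO. It rose by 0.25 ± 0.05 SE (adjusted p = 0.00743), but its probe sets were uneven. Of its 6 others 5 were above 0, they ran from -0.07 to 0.20, and 2 of its 7 probe sets passed. Averaged over its probe sets DNAJC10 did not pass, nor on the probe set with the largest spread, where its difference was 0.06.

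DNAJC25, a membrane protein of the endoplasmic reticulum, read 8.11, 8.08 and 8.26 in AAPK and 7.94, 7.90 and 7.90 in DMSO. It rose by 0.24 ± 0.05 SE (limma adjusted p = 0.0143), and its second probe set, much dimmer, stood at 0.47 and passed too. DNAJC3, or p58IPK, a BiP partner that also restrains the kinase PERK, read 7.18, 6.95 and 7.12 in AAPK and 6.88, 6.73 and 7.12 in DMSO, so that the groups overlapped. Its difference of 0.17 ± 0.09 SE did not pass (adjusted p = 0.277). A second DNAJC3 probe set at 0.34 did pass, and with the mean of its probe sets, with the probe set of largest spread and without DMSO replicate 3 the gene was called higher.

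Beside DNAJC14, described with its list, the genes of this compartment that fell were DNAJB9, DNAJC18 and DNAJC1. DNAJB9, or ERdj4, which serves the degradation of misfolded proteins and represses the stress sensor IRE1, read 7.48, 7.52 and 7.47 in AAPK, against 7.84, 7.78 and 7.94 in DMSO. The groups were clearly apart, with a difference of -0.36 ± 0.05 SE, 1.28-fold lower in AAPK (limma adjusted p = 0.00107). The other DNAJB9 probe sets were at -0.10 and -0.08 and did not pass. Averaged over the probe sets DNAJB9 was at -0.18, and it still passed.

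DNAJC18, a relative of DNAJB12 and DNAJB14, read 5.06, 5.15 and 4.91 in AAPK and 5.29, 5.38 and 5.62 in DMSO. It had the largest fall of the family at -0.39 ± 0.09 SE (limma adjusted p = 0.0116) on a dim probe set whose values spread more than those of most members, and its other probe set was at -0.11. DNAJC1, or ERdj1, a membrane protein that meets the ribosome at the translocation pore, read 8.25, 8.39 and 8.27 in AAPK and 8.56, 8.40 and 8.57 in DMSO. AAPK replicate 2 lay only just under DMSO replicate 2. The difference of -0.21 ± 0.06 SE was close to the threshold (adjusted p = 0.0431), its other probe set gave -0.20, and the call was lost without any 1 of 4 arrays (AAPK replicates 1 and 3, DMSO replicates 1 and 3) with median centring, with the probe set of largest spread chosen for each gene, and in the fit of all probe sets.

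DNAJB12 and DNAJB14, membrane proteins that help to extract misfolded proteins for degradation, were at -0.01 and 0.13. For DNAJB14 the DMSO values of 6.99, 6.66 and 7.18 spanned more than the AAPK values of 7.06, 7.05 and 7.09. Without DMSO replicate 2 its difference was -0.01, and its 2 other probe sets were both at -0.03. DNAJC16 and DNAJC22 were both at 0.02.

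The partners of these proteins moved likewise in both directions. HSPA5, which encodes BiP, the HSP70 of the endoplasmic reticulum, was chosen after its value was seen. It rose by 0.24 ± 0.05 SE (limma adjusted p = 0.00537). Of its 5 other probe sets 4 were above 0, and they ran from -0.13 to 0.43. Among 14 other genes of the unfolded protein response, 4 rose, 3 fell and 7 did not pass, so that 50% passed against 15.4% of all genes. The genes that passed are named after their values were seen. Lower were DDIT3, which encodes the stress factor CHOP, at -2.23, and HERPUD1, which serves the degradation of misfolded proteins, at -0.91. XBP1, the target of IRE1, was lower too, at -0.40. Higher were MANF at 0.50, SDF2L1 at 0.47, PDIA4 at 0.38 and EDEM1 at 0.36. The 4 other probe sets of EDEM1 ran only from -0.06 to 0.12, and the 2 others of PDIA4 from 0.34 to 0.40.

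**Figure D3:**
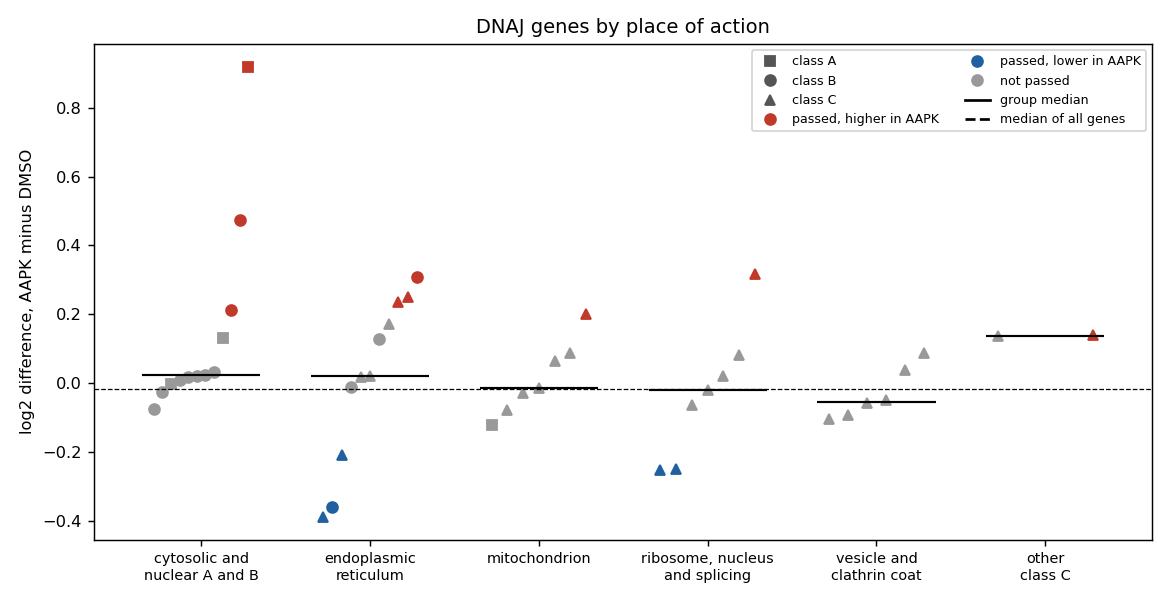
Log2 difference, AAPK minus DMSO (vertical axis), of the 45 classed DNAJ genes by place of action, with each group's median (bar) and the median of all genes (dashed line). The endoplasmic reticulum group, drawn without DNAJC14, holds 3 genes that rose and 3 that fell, and none of the 6 genes of vesicles and clathrin coats passed.

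Of 7 mitochondrial members 1 rose and 0 fell. That is 14.3%, near the 15.4% of all genes. The median difference was -0.01. DNAJC11, a protein tied to the organisation of inner-membrane cristae, read 8.39, 8.31 and 8.32 in AAPK and 8.14, 8.13 and 8.14 in DMSO. The difference of 0.20 ± 0.04 SE passed (limma adjusted p = 0.0111). Of its other 2 probe sets 1 was at 0.12 and 1 at -0.01, so the rise was not seen on all of them, and with the mean of its probe sets, on the one with the largest spread and without AAPK replicate 1 it did not pass. Mean and largest-spread probe sets put DNAJC11 at 0.10 and 0.12.

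Apart from DNAJA3, the mitochondrial genes that did not pass ran from -0.08 for DNAJC28 to 0.09 for DNAJC15. DNAJC15 and DNAJC19, at 0.09 and 0.06, belong to the import motor of the inner membrane, and their second probe sets stood at -0.13 and -0.12. DNAJC30, linked to ATP synthase and complex I, was at -0.01 and DNAJC4 at -0.03. HSPA9, the mitochondrial HSP70 that these proteins serve, was chosen after its value was seen and fell by 0.26 on the log2 scale (adjusted p = 0.00402).

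In the group of ribosome, nucleus and splicing 1 of 7 genes rose and 2 fell, so that 42.9% passed against 15.4% of all genes. Of the 2 that fell, 1 was DNAJC14, which entered the count of 12 for the endoplasmic reticulum above but not that of 11. DNAJC2, or MPP11, forms the ribosome-associated complex with HSPA14 and also acts at chromatin. It read 8.03, 8.13 and 7.98 in AAPK and 7.80, 7.60 and 7.78 in DMSO. The arrays did not overlap, and it rose 1.25-fold (log2 difference 0.32 ± 0.06 SE, limma adjusted p = 0.00699) on its only probe set. HSPA14, chosen after its value was seen, rose by 0.20 ± 0.05 SE (adjusted p = 0.0159), although 2 of its 3 other probe sets were below 0, down to -0.15.

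DNAJC9, a chaperone of newly made histones H3 and H4, fell. It read 9.66, 9.68 and 9.65 in AAPK, against 9.92, 9.91 and 9.90 in DMSO. Both groups were tight, and the difference was -0.25 ± 0.04 SE or 1.19-fold lower in AAPK (limma adjusted p = 0.0025). All 4 other probe sets were below 0, from -0.31 to -0.03, and 2 of the 5 passed.

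DNAJC14, placed in this list but known as a membrane protein of the endoplasmic reticulum that helps dopamine receptors to the cell surface, read 8.12, 8.19 and 8.09 in AAPK and 8.37, 8.40 and 8.39 in DMSO. It fell by 0.25 on the log2 scale (adjusted p = 0.004) with -0.18 on its other probe set, which did not pass. DNAJC21, a factor of large ribosomal subunit maturation, was at -0.02 on its brightest probe set (adjusted p = 0.864). Its 3 others, given after their values were seen, all lay lower, down to -0.30 on the dimmest, which passed. The other genes not past the threshold ran from -0.06 for the splicing protein DNAJC17 to 0.08 for DNAJC24, an enzyme of diphthamide synthesis, with the splicing protein DNAJC8 at 0.02.

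**Figure D4:**
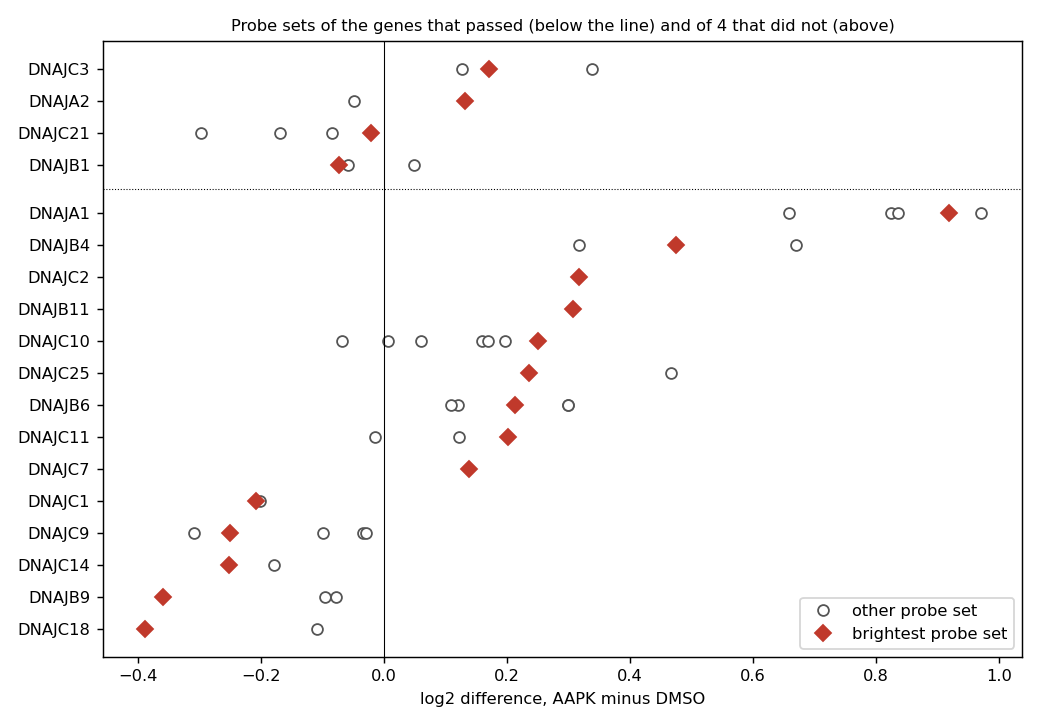
Log2 difference, AAPK minus DMSO (horizontal axis), on every probe set of the 14 genes that passed (below the dotted line) and of 4 that did not (above it), with the brightest as diamonds. All 5 DNAJA1 probe sets lie above 0.6, whereas those of DNAJC10 run from -0.07 to 0.25.

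None of the 6 vesicle and clathrin genes passed limma's threshold, and 1, DNAJC13, had an unadjusted p under 0.05. DNAJC13, or RME8, an endosomal protein, read 6.95, 6.96 and 6.96 in AAPK and 7.07, 7.03 and 7.07 in DMSO. The groups were narrow and apart, at -0.10 (95% interval -0.20 to -0.01, adjusted p = 0.142). The other 5 ran from -0.09 for DNAJC5G to 0.09 for DNAJC5B. DNAJC5, the cysteine string protein of secretory vesicles, was at 0.04. DNAJC6, or auxilin, which uncoats clathrin vesicles, was at -0.05. DNAJC27, a small GTPase with a J domain, was at -0.06.

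DNAJC7, or TPR2, binds both HSP70 and HSP90. It read 8.76, 8.75 and 8.74 in AAPK and 8.60, 8.63 and 8.61 in DMSO. The difference of 0.14 ± 0.04 SE was small but the arrays of each group were tight, and it lay at the edge of the threshold (limma adjusted p = 0.048). Its call was lost whichever array was left out, with quantile normalisation, with the probe set of largest spread chosen for each gene and in the fit of all probe sets, and the difference stayed between 0.11 and 0.16. DNAJC12, a co-chaperone of phenylalanine hydroxylase, was at 0.14 with a wider 95% interval of -0.02 to 0.30 and did not pass.

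Probe sets gave a further view of the calls. When all 44988 single-symbol probe sets were fitted together, 26 of the 126 DNAJ probe sets passed, 19 higher and 7 lower in AAPK. That is 20.6%, against 12.9% of all probe sets. Among the 14 genes that passed, 11 had more than 1 probe set, and in 9 of these every other probe set moved the way of the brightest. The exceptions were DNAJC10 and DNAJC11, and DNAJB11, DNAJC2 and DNAJC7 had 1 probe set each.

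Genes of the HSP70 machine around the family also moved in both directions. Of 25 measured HSP70 proteins, exchange factors and HSP70-HSP90 bridging factors, 12 rose and 5 fell, so that 68% passed against 15.4% of all genes. The list was chosen with results of these arrays known, and its count is not independent evidence. Of 9 HSP70 proteins 4 rose and 2 fell, so that 66.7% passed. HSPA1B, a stress-inducible HSP70, and HSPA8, the constitutive HSC70, had differences of 1.94 ± 0.06 and 1.29 ± 0.04 SE. Of the 8 other HSPA8 probe sets 7 were above 0, and they ran from -0.05 to 1.53. HSPA1B has a near-identical copy that its value may include. Of 13 exchange factors 7 rose and 3 fell, so that 76.9% passed. GRPEL2, an exchange factor of the mitochondrial HSP70, fell, with means of 8.78 in AAPK and 9.78 in DMSO (adjusted p = 1.39e-06), and its other probe set was at -0.49. None of 3 measured J-domain genes with other names, SEC63, HSCB and GAK, passed limma's threshold, and HSCB had an unadjusted p under 0.05. Of 9 measured heat shock genes outside these lists 5 rose, 0 fell and 4 did not pass, among them HSF1 at -0.08. The share that passed was 55.6%, against 15.4% of all genes, and the median difference was 0.29. This list, too, was chosen with results known.

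**Figure D5:**
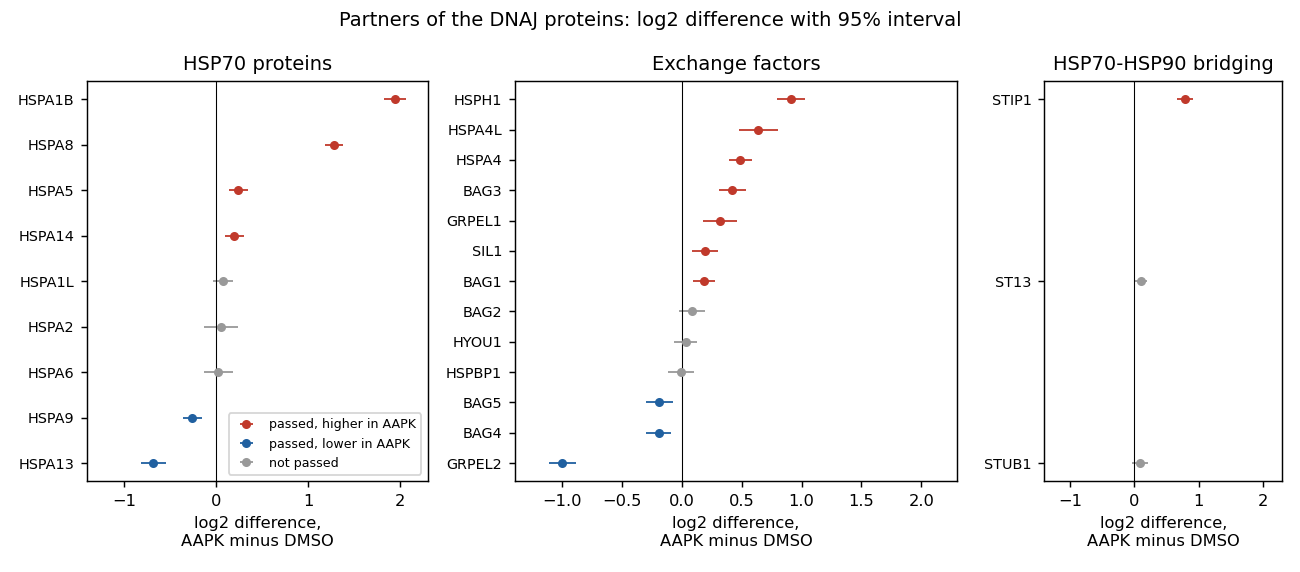
Log2 difference, AAPK minus DMSO (horizontal axis), with 95% intervals for 25 genes whose proteins work with DNAJ proteins, 3 arrays a group. HSPA1B and HSPA8 lie furthest to the right, and GRPEL2 and HSPA13 furthest to the left. The 3 other probe sets of HSPA13, not drawn, ran from -0.50 to 0.35.

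Set beside the promoter stretches, the genes with the 3-unit element, DNAJA1 and DNAJB6, were both among the 9 that rose. Of the 8 genes with a 2-unit element 3 passed, DNAJA1, DNAJB4 and DNAJB6. That is 37.5% and near the 32.5%, or 13 of 40, of all members with a promoter entry. DNAJB1, with a pair of such elements before the start printed above, did not pass. Neither did DNAJA4, dim on this array, with a pair of the same letters before its start. DNAJB7, DNAJC6 and DNAJC15 did not pass either. These are counts over few genes and were not tested.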

How the data were processed

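The deposited table holds the authors' log2 signal for 49395 probe sets on 6 arrays. The scale is read from the range, 2.83 to 14.25, and the nearly equal quartiles show normalised arrays; how they were normalised is not stated in the labels. Probe sets were named from GEO's platform table. The brightest probe set of each of 18132 genes, by its mean over 6 arrays, was tested with limma 3.58.1 under R 4.3.3, with lmFit and eBayes, no covariates, two-sided p-values and Benjamini-Hochberg adjustment over all genes (threshold 0.05). Intervals are moderated 95% intervals, and the number of arrays limits their precision.

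Fits were tested on simulated data. The members and lists were chosen with earlier results of these data known. By rule the text details class A and B genes, class C genes that passed, the extremes of each role group among the rest, and the 3 most changed partners. Other members get their difference only, and exceptions are marked. Same-numbered arrays did not deviate together (correlations -0.02, -0.23 and -0.05), and arrays of differing number had correlations from -0.13 to 0.17. Alternatives were other normalisations, signal filters, probe set choices, variance settings, a replicate block and leaving out each array. Control probe sets for the 5′ and middle parts of large-subunit ribosomal RNA were higher in AAPK by 0.56 and 0.51, that for the 3′ part of small-subunit ribosomal RNA was at -0.41 (adjusted p = 0.0498), the large-subunit 3′ control, at -0.13, did not pass, and their part in the results was not tested. Protein sequences were not used here.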

Additional observations from a re-analysis of the deposited data

Results flagged for a closer look

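A probe set outside the gene comparison, which names both GNG10 and the DNAJC25-GNG10 readthrough transcript, was higher in AAPK. It averaged 9.96 ± 0.03 log2 units in AAPK and 9.77 ± 0.03 in DMSO (SD, n = 3 each), a difference of 0.19 that passed limma's threshold when all probe sets were fitted (adjusted p = 0.0228). DNAJC25 itself rose by 0.24. The probe set cannot tell GNG10 from the readthrough transcript. The other 3 probe sets that name a DNAJ gene beside another gene, for DNAJB14, DNAJB3 and DNAJC18, were at 0.02, 0.00 and 0.00 and did not pass.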

How the results depend on the processing

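Of the 14 calls, 8 held under every one of the 16 alternatives run for them (DNAJA1, DNAJB4, DNAJB9, DNAJB11, DNAJC2, DNAJC9, DNAJC18 and DNAJC25; the signal filters leave DNAJC18 out), and none changed sign. Leaving genes under the median signal out, or an intensity trend, gave 2 class A genes higher in AAPK (DNAJA2 joined DNAJA1), and quantile normalisation gave 1 lower (DNAJA3). The class A median was 0.13 under both signal filters, which left fewer genes, and 0.0237 with the mean of probe sets. With the probe set of largest spread, 3 class C genes were higher, and the class C median was -0.0252. Leaving out 1 array gave 3 (without AAPK replicate 1) to 5 class C genes higher in AAPK, and 3 (without AAPK replicate 1 or DMSO replicate 3) to 4 partner genes lower. Over these fits 7 to 9 DNAJ genes were higher and 4 to 5 lower. The replicate block gave 7 DNAJ genes higher, 4 lower and 3 partner genes lower, with calls on DNAJB6, DNAJC1 and DNAJC7 lost. The labels do not say whether the replicate numbers pair the arrays. The probe set of largest spread lost the calls on DNAJC1, DNAJC7, DNAJC10, DNAJC11 and DNAJC14. The cause of these changes was not tested. The median gene stood at -0.02 as deposited and 0.00 after median centring. For the 7 members under the 25th percentile of signal, signal over background limits what could be seen.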
